A study of Mus musculus with 24 samples.

Results

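Ribosome assembly factors are the proteins that build the ribosomal subunits without becoming part of them. A list of 40 such genes was followed through liver RNA sequencing of furan-dosed mice by taking every row of the deposited count table whose gene name was on the list. Of the 40 listed genes, 39 had a row among the 24015 genes of the table, and Noc2l was not analysed here. The list holds box C/D and box H/ACA small nucleolar ribonucleoprotein (snoRNP) proteins, abundant nucleolar proteins, early and late factors of the small subunit, the Pes1-Bop1-Wdr12 (PeBoW) complex and other factors of the large subunit, and nucleolar factors linked to RNA polymerase I.

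Ribosomal RNA is transcribed by RNA polymerase I in the nucleolus as a long precursor, which snoRNPs modify and which the small-subunit processome and large-subunit factors fold, cut and pack with ribosomal proteins. In rodent liver this machinery is known to be induced when hepatocytes regrow after injury or partial hepatectomy. Many of its genes are known targets of the transcription factor MYC, and failed assembly is known to stabilise p53 through free ribosomal proteins that bind Mdm2.

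The mice were female B6C3F1, a hybrid strain used in toxicology, bought at 5 to 6 weeks of age. The 4 furan animals were gavaged daily for 21 days with furan in corn oil at a dose of 8 mg per kg, the 4 control animals were gavaged with the oil alone, and liver was taken 4 hours after the last dose. Each liver gave 3 pieces: snap frozen, kept 18 hours in formalin and embedded in paraffin (FFPE 18 h), or kept 3 weeks in formalin and embedded (FFPE 3 weeks), so there were 6 groups of 4 libraries. All libraries were made from total RNA depleted of ribosomal RNA. Frozen and FFPE tissue were extracted with different kits, FFPE 3 weeks RNA came from more tissue sections than FFPE 18 h RNA, and the labels give lower RNA integrity for FFPE than for frozen samples, so fixation, kit, input and piece of liver cannot be told apart.

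Libraries held 22889146 to 28054631 counts in FFPE 18 h, 5560002 to 11019297 counts in FFPE 3 weeks and 37978435 to 49326373 counts in frozen tissue. Hepatocyte markers were abundant in every frozen library, with a summed level of 159884 to 181108 CPM (counts-per-million, scaled for library composition) in furan and 150378 to 170348 CPM in control livers. The frozen library of control animal 3 stood apart, with a mean Pearson correlation of log2 CPM across genes of 0.961 with the other frozen control libraries, against 0.977 to 0.980 for the other control libraries of that preservation. Counts of assembly factors and pathway genes called with furan in frozen liver are given with and without it. In whole liver, fewer cells of a type and less RNA per cell cannot be told apart.

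Because several assembly factor genes are known MYC targets, their promoters were read for the E-box that MYC and related factors bind, CACGTG, which is the same on both strands. The window ran from 250 bases before to 50 bases after the RefSeq gene start (GRCm38.p6), and 32 of the 39 members had a promoter sequence; Fbl, Npm1, Rrs1, Bop1, Gnl2, Rrp12 and Wdr36 did not. The motif was in 7 of the 32 (21.9%), against 8.09% of 27025 promoters and 11.3% of the 10489 promoters of genes tested in frozen liver. These 7 sites are shown because they are the members' stretches of regulatory sequence that hold the motif; they lie at chr10:13193092-13193121 (minus strand, Ltv1), chr11:72441355-72441376 (plus, Mybbp1a), chr6:125131811-125131840 (plus, Nop2), chr11:3963965-3963994 (plus, Pes1), chr11:74898092-74898121 (plus, Tsr1), chr10:88826765-88826789 (minus, Utp20) and chr17:71616220-71616249 (plus, Wdr43), with the E-box in capitals and up to 12 bases on each side, read 5′ to 3′ on the gene's strand. A match of these letters is a description, not a measured binding site.
Ltv1: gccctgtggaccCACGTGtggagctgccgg
Mybbp1a: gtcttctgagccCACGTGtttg
Nop2: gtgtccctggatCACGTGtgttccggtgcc
Pes1: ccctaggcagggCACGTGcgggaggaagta
Tsr1: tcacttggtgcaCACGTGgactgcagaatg
Utp20: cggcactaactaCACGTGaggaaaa
Wdr43: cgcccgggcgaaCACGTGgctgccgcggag

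The first question was what furan did to the assembly factors in each preservation. The members together made up a larger share of all counts in furan livers in each preservation. The share was 0.107 to 0.112% of counts in furan and 0.0813 to 0.0902% in control frozen livers. In FFPE 18 h tissue it was 0.107 to 0.113% in furan and 0.0818 to 0.0897% in control livers, and in FFPE 3 weeks tissue 0.102 to 0.110% in furan and 0.0771 to 0.0844% in control livers. Furan and control libraries did not overlap in this share in any preservation. As a description, the median log2 fold change (furan over control) of the members was 0.27 in frozen, 0.38 in FFPE 18 h and 0.35 in FFPE 3 weeks tissue, where the median of all genes tested was -0.01, 0.00 and 0.01.

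**Figure D1:**
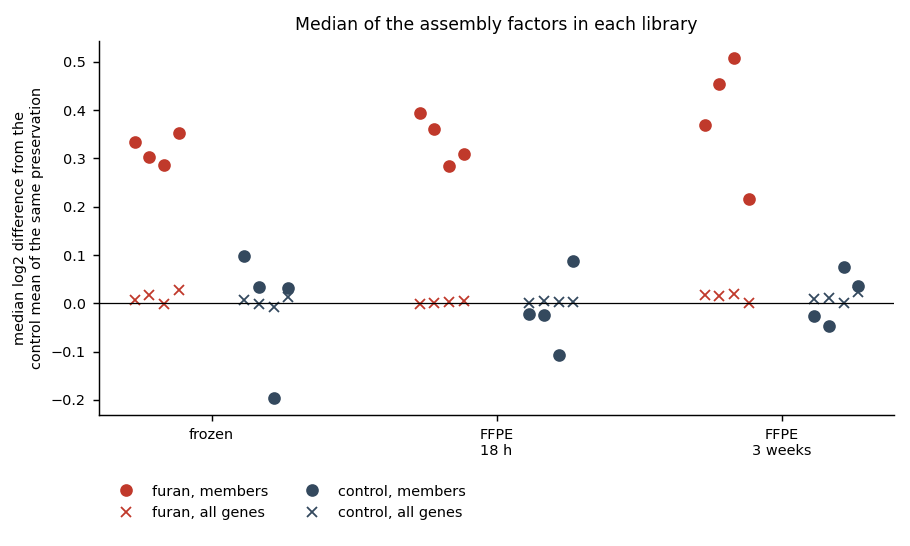
Median over the assembly factors (circles) and over all genes (crosses) of the log2 difference between each library and the control mean of its preservation, furan libraries left of control libraries. Members lay between 0.22 and 0.51 in the 12 furan libraries and between -0.20 and 0.10 in the 12 control libraries.

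In frozen liver, 4 of the 39 members rose with furan and 0 fell at an adjusted p below 0.05 (edgeR's quasi-likelihood test with Benjamini-Hochberg adjustment over all genes), where 1.57% of 14122 genes were called higher and 1.2% lower. These were the small-subunit factors Utp20, Heatr1 and Tsr1 and the box C/D snoRNP core protein Nop58. At an unadjusted p under 0.05, 17 members were higher and 0 lower, where 9.06% of all genes were higher. In 14 members every furan library lay above every control library, as for 7.19% of all genes. In FFPE 18 h tissue 20 of 39 members rose and 0 fell, where 7.82% of 14204 genes were called higher and 7.72% lower. At an unadjusted p under 0.05, 25 were higher there, where 14.5% of all genes were, and in 19 members the groups did not overlap, where 9.59% of all genes had furan libraries all above control libraries. The FFPE 3 weeks libraries allowed 38 members to be tested, and edgeR called 0 of them, with 7 higher and 0 lower at an unadjusted p under 0.05 and 1 called by DESeq2 (Ncl). Among all 12983 genes tested there 1.07% were called higher and 1.51% lower, and 6.15% were higher at an unadjusted p under 0.05; furan libraries lay above all control libraries in 7 members, and in 3.88% of all genes. Nop58, Heatr1 and Utp20 were called in both frozen and FFPE 18 h tissue; the pieces come from the same animals, so these are not independent sets of mice.

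The frozen count depends on single libraries. Without control animal 3 it was 15 members, in a fit where 633 rather than 222 genes of the whole table were called higher. Without control animal 4 or furan animal 44 it was 0, without control animal 6 or furan animal 41, 42 or 43 it was 1, and without control animal 2 it was 3. Calls over the whole table moved too. With 1 animal left out, 62 (without furan animal 44) to 633 genes were called higher, against 222 with all animals. The 15 called without control animal 3 included the 4 called with it, and 12 of them were among the 20 called in FFPE 18 h tissue. DESeq2 called 10 members higher in frozen liver. In 1 fit over all 24 libraries with a shared spread, 3 members were called higher in frozen, 2 in FFPE 18 h (Heatr1 and Utp20) and 8 in FFPE 3 weeks tissue. After thinning every library to 5560002 counts 2 were called higher in frozen and 11 in FFPE 18 h tissue. The share of all genes called in these other fits is not given, here or wherever they are cited. Counts of all genes are given only for furan against control within a preservation, with 1 animal left out. The member counts of these fits were not set against a share.

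**Figure D2:**
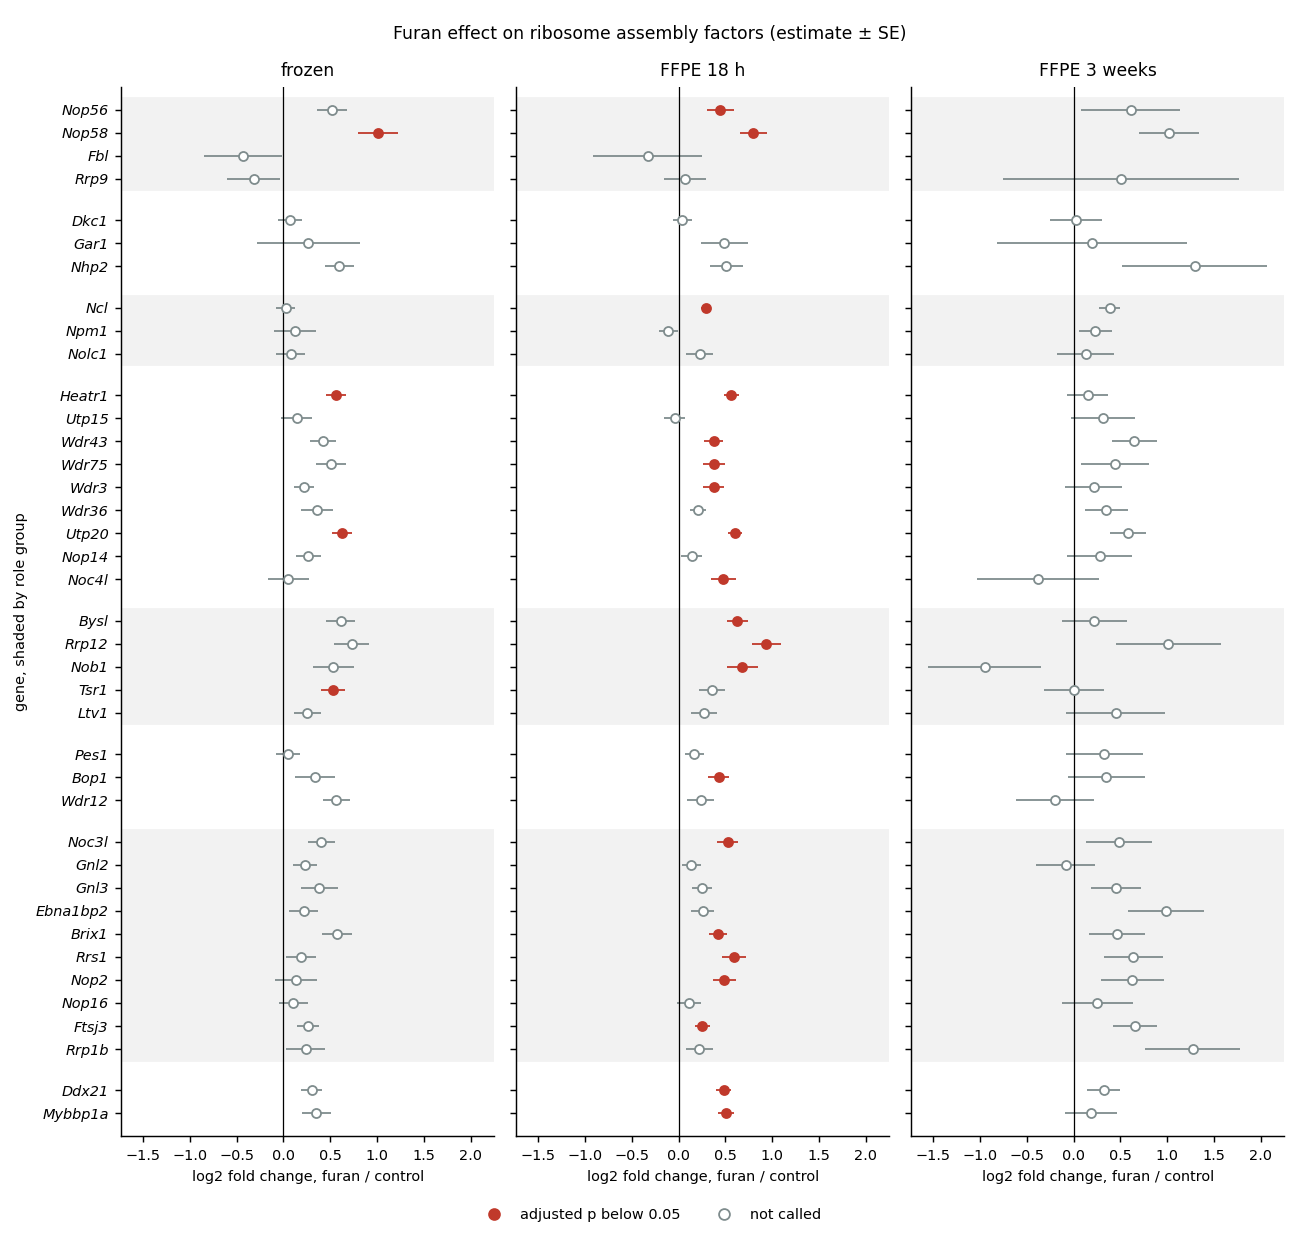
Log2 fold change (furan over control) ± SE of each member in frozen, FFPE 18 h and FFPE 3 weeks tissue, with genes down the page by role and filled points for adjusted p below 0.05. The 4 calls in frozen and 20 calls in FFPE 18 h tissue all lie right of 0, and the FFPE 3 weeks panel has wider errors and 0 calls.

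Among the early small-subunit factors, which form the processome on the nascent precursor, Utp20 had the smallest p in frozen, FFPE 18 h and animal-averaged data. Utp20, a large scaffold protein of the processome, had 65.3, 62.1, 69.0 and 71.6 CPM in frozen furan livers and 45.5, 39.8, 42.4 and 46.5 CPM in frozen control livers. Its FFPE 18 h levels were 64.7, 71.0, 64.6 and 68.3 CPM with furan and 48.2, 44.4, 39.5 and 46.3 CPM without. Its FFPE 3 weeks levels were 54.5, 56.8, 49.1 and 63.3 CPM with furan and 40.1, 37.8, 47.6 and 25.8 CPM without. Furan and control libraries of Utp20 were fully separated in each preservation. The log2 fold change was 0.62 ± 0.10 (SE, adjusted p = 0.0106, edgeR) in frozen, 0.60 ± 0.07 (adjusted p = 4.13e-05, edgeR) in FFPE 18 h and 0.58 ± 0.20 (adjusted p = 0.123, edgeR) in FFPE 3 weeks tissue, so the last did not pass.

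Heatr1, the mouse counterpart of yeast Utp10 and a member of the processome subcomplex tied to ribosomal RNA transcription, had 61.2, 64.7, 51.3 and 58.7 CPM in frozen furan livers and 40.4, 42.1, 36.9 and 40.9 CPM in frozen control livers. In FFPE 18 h tissue Heatr1 had 50.02, 57.7, 51.4 and 50.4 CPM with furan and 34.0, 37.3, 33.5 and 37.7 CPM in controls. Heatr1 was separated without overlap in both, and rose by a log2 fold change of 0.56 ± 0.11 (SE, adjusted p = 0.0215, edgeR) in frozen and 0.57 ± 0.08 (adjusted p = 9.09e-05, edgeR) in FFPE 18 h tissue. The Heatr1 libraries overlapped in FFPE 3 weeks tissue, with 28.6 to 38.2 CPM in furan and 22.2 to 35.7 CPM in control livers and a log2 fold change of 0.15 ± 0.22 (SE, adjusted p = 0.901, edgeR). In FFPE 18 h tissue 6 of the 9 early factors rose: besides these, Wdr43 and Wdr75, which sit in the same transcription-linked subcomplex, Wdr3, and Noc4l, the partner of Nop14. Wdr43 had 43.7, 35.6, 31.1 and 30.1 CPM in furan and 28.2, 26.3, 26.7 and 27.9 CPM in control livers (log2 fold change 0.38 ± 0.10, adjusted p = 0.02, edgeR). Wdr75 had 17.8, 21.6, 17.7 and 17.2 CPM in furan and 13.9, 16.4, 12.3 and 15.1 CPM in control livers (0.38 ± 0.12, adjusted p = 0.0358, edgeR). The groups of both were apart, whereas Wdr3 was the 1 called member whose groups overlapped, with 26.0, 26.0, 21.2 and 19.5 CPM in furan and 16.6, 19.0, 16.6 and 19.6 CPM in control livers (0.38 ± 0.11, adjusted p = 0.0286, edgeR). Noc4l had 9.52, 10.3, 9.71 and 10.5 CPM in furan and 6.80, 7.92, 7.70 and 6.42 CPM in control livers (0.48 ± 0.13, adjusted p = 0.0195, edgeR). The 6 calls of this group were 3 without control animal 2 or 4 or furan animal 41 or 42. Its 2 frozen calls were 2 without control animal 3, and 0 without control animal 4 or furan animal 44. Wdr36 was at 0.36 ± 0.17 and Nop14 at 0.26 ± 0.13 in frozen liver (log2 fold change ± SE), and neither was called in any preservation. Utp15 was at -0.04 ± 0.11 (log2 fold change ± SE) in FFPE 18 h tissue.

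**Figure D3:**
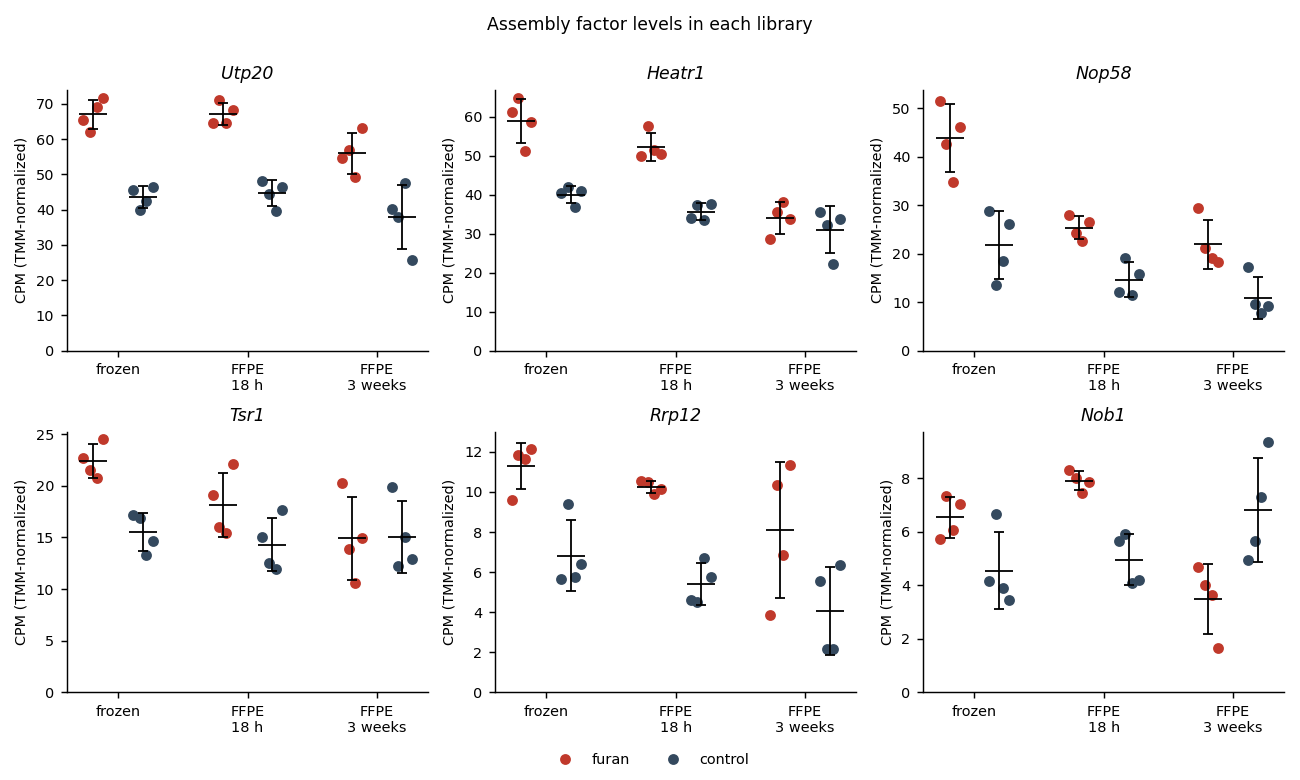
Levels (CPM, normalized with the trimmed mean of M values) of 6 assembly factors in each library of the 6 groups, furan left of control, with bars for the mean ± SD of 4 animals. Utp20 and Nop58 are separated in each preservation, and Nob1 lies higher with furan in FFPE 18 h and lower in FFPE 3 weeks tissue, a difference that did not pass the test over all genes.

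The late small-subunit factors act on the particle as it leaves the nucleolus. Tsr1, a GTPase-like factor that occupies the subunit until late in its maturation, rose in frozen liver, with 22.7, 21.5, 20.7 and 24.5 CPM in furan and 17.2, 16.9, 13.3 and 14.6 CPM in control livers. These libraries did not overlap, and the log2 fold change was 0.53 ± 0.13 (SE, adjusted p = 0.0498, edgeR), which is close to the threshold. The late factors had 1 call in frozen liver, 4 without control animal 3 (Tsr1, Bysl, Rrp12 and Nob1) and 0 without any other single animal. Its log2 fold change was 0.36 ± 0.14 (SE, adjusted p = 0.101, edgeR) in FFPE 18 h tissue and 0.01 ± 0.32 in FFPE 3 weeks tissue. Rrp12, an export factor of the subunit, rose in FFPE 18 h tissue, with 10.5, 10.5, 9.90 and 10.1 CPM in furan and 4.59, 4.53, 6.71 and 5.75 CPM in control livers. Its furan libraries lay close together and far above the control libraries, and its log2 fold change of 0.94 ± 0.15 (SE, adjusted p = 5e-04, edgeR) was the largest among the members called there. Rrp12 was at 0.73 ± 0.19 (adjusted p = 0.0695, edgeR) in frozen liver.

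Bysl, the counterpart of yeast Enp1, was the fifth member by p in frozen liver, with 16.6, 19.0, 19.1 and 15.97 CPM in furan and 10.9, 14.0, 9.25 and 12.2 CPM in control livers, and it did not pass (log2 fold change 0.61 ± 0.15, adjusted p = 0.0613, edgeR). It rose in FFPE 18 h tissue by 0.63 ± 0.11 (log2, adjusted p = 0.00102, edgeR). Nob1, the endonuclease that makes the final cut of the small-subunit RNA, rose in FFPE 18 h tissue, with 8.31, 8.02, 7.44 and 7.87 CPM in furan and 5.67, 5.91, 4.08 and 4.19 CPM in control livers (log2 fold change 0.68 ± 0.17, adjusted p = 0.00917, edgeR). Nob1 ran the other way in FFPE 3 weeks tissue, with 4.68, 4.01, 3.65 and 1.66 CPM in furan and 4.96, 5.67, 7.32 and 9.35 CPM in control livers. There all furan libraries lay below all control libraries, but the log2 fold change of -0.95 ± 0.60 did not pass (adjusted p = 0.589, edgeR). Ltv1, an adaptor of late small-subunit particles, was at 0.26 ± 0.14 in frozen and 0.27 ± 0.14 in FFPE 18 h tissue (log2 fold change ± SE) and was not called.

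Of the box C/D snoRNP proteins, which carry the guides for ribose methylation, Nop58 showed the largest fold change of any called member in frozen liver. Nop58, a core protein of the particle, had 51.5, 42.8, 34.8 and 46.3 CPM in furan and 28.9, 13.5, 18.6 and 26.1 CPM in control frozen livers. The lowest of these, 13.5 CPM, was control animal 3, and without that animal the frozen log2 fold change was 0.84. With all animals the log2 fold change was 1.01 ± 0.22 (SE, adjusted p = 0.0344, edgeR) in frozen liver, 0.80 ± 0.14 (adjusted p = 0.00155, edgeR) in FFPE 18 h tissue and 1.02 ± 0.32 (adjusted p = 0.092, edgeR) in FFPE 3 weeks tissue. Its FFPE 3 weeks libraries did not overlap either, with 29.4, 21.2, 19.1 and 18.3 CPM in furan and 17.3, 9.59, 7.70 and 9.13 CPM in control livers. Nop56, the paired core protein, rose in FFPE 18 h tissue, with 9.35, 10.2, 8.90 and 11.0 CPM in furan and 6.55, 6.17, 8.48 and 7.93 CPM in control livers (0.45 ± 0.15, log2, adjusted p = 0.0456, edgeR), and was at 0.52 ± 0.16 (adjusted p = 0.113, edgeR) in frozen liver. Without control animal 3, both Nop58 and Nop56 were called in frozen liver. The 2 calls of this group in FFPE 18 h tissue were 1 without any single animal other than control animal 4.

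Fbl, the methyltransferase of the same particle, was read at only 18 to 31 counts in furan and 14 to 36 counts in control frozen libraries, and at 0 to 14 counts in both groups of FFPE 3 weeks tissue, so a change of Fbl was not detectable at this depth. The cause of its low counts was not tested. Rrp9, which binds the U3 particle, had 5.65 to 6.52 CPM in furan and 4.70 to 13.6 CPM in control frozen livers; the highest control was animal 3, and the groups overlapped.

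Of the box H/ACA proteins, which guide pseudouridylation, 0 of 3 were called in any single preservation by edgeR with all animals. In frozen liver 1 was called without control animal 3 (Nhp2) and 1 by DESeq2, in FFPE 18 h tissue 1 was called without control animal 4, and in FFPE 3 weeks tissue Nhp2 was called in the fit over all 24 libraries. Nhp2, a core protein, came nearest in frozen liver, with 16.5, 12.2, 13.4 and 13.1 CPM in furan and 9.89, 8.71, 9.87 and 8.02 CPM in control livers (log2 fold change 0.60 ± 0.15, adjusted p = 0.0619, edgeR). Its groups did not overlap in frozen tissue. Dkc1, the pseudouridine synthase, was at 0.07 ± 0.13 in frozen, 0.04 ± 0.10 in FFPE 18 h and 0.03 ± 0.28 in FFPE 3 weeks tissue (log2 fold change ± SE). Gar1, another core protein, was at 0.27 ± 0.55 in frozen and 0.49 ± 0.25 in FFPE 18 h tissue and was not called.

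Ncl, Npm1 and Nolc1 are abundant multifunctional nucleolar proteins. Ncl (nucleolin) rose in FFPE 18 h tissue, with 182, 175, 178 and 176 CPM in furan and 150, 138, 150 and 146 CPM in control livers (log2 fold change 0.29 ± 0.06, adjusted p = 0.00182, edgeR). It had the smallest p of the members in FFPE 3 weeks tissue, with 199, 178, 179 and 187 CPM in furan and 139, 139, 147 and 150 CPM in control livers, and missed the threshold there (0.39 ± 0.11, adjusted p = 0.0548, edgeR). In frozen liver Ncl had 175, 167, 166 and 180 CPM with furan and 185, 168, 146 and 180 CPM without, and the groups overlapped. Npm1 (nucleophosmin) was not called in any preservation: the frozen levels were 67.1, 49.6, 52.8 and 58.0 CPM in furan and 63.9, 27.3, 57.4 and 60.0 CPM in control livers, with control animal 3 the low one. Nolc1, a chaperone of snoRNPs, was at 0.08 ± 0.16 in frozen and 0.22 ± 0.15 in FFPE 18 h tissue (log2 fold change ± SE) and was not called.

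For the large subunit, the PeBoW complex and 10 other factors were measured. In frozen liver 0 of these 13 were called (edgeR), and without control animal 3 there were 2 calls in PeBoW (Bop1 and Wdr12) and 3 among the other factors (Brix1, Nop2 and Ftsj3). DESeq2 called 1 of each there. Bop1 of PeBoW rose in FFPE 18 h tissue, with 17.9, 19.0, 21.1 and 21.7 CPM in furan and 16.9, 12.8, 14.0 and 15.7 CPM in control livers, by 0.43 ± 0.11 (log2, adjusted p = 0.014, edgeR), with Pes1 at 0.17 ± 0.10 and Wdr12 at 0.24 ± 0.14. The call of Bop1 was lost without control animal 3 or furan animal 43 or 44. Among the other large-subunit factors 5 of 10 rose there: Rrs1, which helps place the particle formed by ribosomal proteins and the smallest ribosomal RNA, by 0.60 ± 0.13, Noc3l by 0.52 ± 0.11, the RNA cytosine methyltransferase Nop2 by 0.49 ± 0.12, Brix1 by 0.42 ± 0.09 and the ribose methyltransferase Ftsj3 by 0.25 ± 0.08 (log2 fold change ± SE). Rrs1 had 11.5, 11.3, 10.5 and 11.9 CPM in furan and 6.43, 8.04, 7.41 and 8.22 CPM in control FFPE 18 h tissue. Nop2 had 19.3, 18.5, 19.9 and 21.9 CPM in furan and 11.1, 14.7, 14.6 and 16.6 CPM in control livers there. The groups of both did not overlap. Noc3l had 15.5, 14.8, 13.2 and 16.5 CPM in furan and 10.6, 9.71, 10.8 and 10.9 CPM in control FFPE 18 h tissue. Brix1 had 25.5, 24.7, 26.7 and 25.5 CPM in furan and 20.2, 17.3, 18.4 and 21.2 CPM in control FFPE 18 h tissue, without overlap. Gnl2, Gnl3 (nucleostemin), Ebna1bp2, Nop16 and Rrp1b were at log2 fold changes of 0.11 to 0.26 there and were not called. Rrp1b, a nucleolar partner of these factors, had 7.33, 9.11, 12.9 and 8.61 CPM in furan and 3.70, 6.34, 2.31 and 3.44 CPM in control FFPE 3 weeks tissue, without overlap, and did not pass (1.27 ± 0.50, log2, adjusted p = 0.228, edgeR). Ftsj3 was at 0.66 ± 0.24 (adjusted p = 0.166, edgeR) and Wdr43 of the early small-subunit group at 0.65 ± 0.24 (adjusted p = 0.185, edgeR) in that tissue.

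The nucleolar factors linked to RNA polymerase I, Ddx21 and Mybbp1a, both rose in FFPE 18 h tissue. Ddx21, an RNA helicase, had 61.0, 70.1, 61.2 and 54.5 CPM in furan and 45.2, 43.1, 41.1 and 48.5 CPM in control livers (log2 fold change 0.48 ± 0.08, adjusted p = 0.000711, edgeR). Mybbp1a had 53.2, 60.5, 62.5 and 60.4 CPM in furan and 42.4, 37.6, 39.4 and 48.4 CPM in control livers (0.51 ± 0.09, adjusted p = 0.000658, edgeR). Neither gene had overlapping groups there. In frozen liver Ddx21 was at 0.30 ± 0.11 and Mybbp1a at 0.35 ± 0.15, and neither was called; without control animal 3 Mybbp1a was.

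When the 3 pieces of each liver were averaged and 4 furan animals compared with 4 control animals in limma, 12 of 39 members rose and 0 fell, where 4.62% of 14901 genes were called higher and 4.96% lower. At an unadjusted p under 0.05, 23 were higher, where 11.9% of all genes were. All 39 estimates were above 0, with a median of 0.37 on the log2 scale. The 12 were Utp20 (0.60 ± 0.09, adjusted p = 0.00027, limma), Nop58 (0.97 ± 0.14, adjusted p = 0.000299, limma), Rrp12 (0.91 ± 0.20), Nhp2 (0.87 ± 0.20), Ddx21 (0.35 ± 0.08), Heatr1 (0.42 ± 0.10), Brix1 (0.49 ± 0.12), Ftsj3 (0.40 ± 0.10), Wdr43 (0.46 ± 0.13), Bysl (0.47 ± 0.14), Noc3l (0.45 ± 0.13) and Mybbp1a (0.37 ± 0.11), each as log2 fold change ± SE. Of these, 11 were among the 20 called in FFPE 18 h tissue, and Nhp2 was the addition. The animal means include the FFPE 18 h libraries, so this overlap is partly built in.

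The next question was whether the furan effect differed between preservations. No member and no other gene passed the test of the difference itself (edgeR interaction, 0% of genes called in each of the 3 tests), while at an unadjusted p under 0.05, 2 members were higher and 0 lower for FFPE 18 h against frozen (1.04% and 0.566% of all genes), 2 and 2 for FFPE 3 weeks against frozen (2.25% and 1.85%) and 1 and 1 for FFPE 3 weeks against FFPE 18 h (2.88% and 2.44%). DESeq2 also called 0 members in each. The excess of calls in FFPE 18 h over frozen tissue is thus not shown to be a difference of effect. The smallest unadjusted p among the members were for Ncl, with a difference of 0.29 ± 0.12 (log2, adjusted p = 1, edgeR) between FFPE 18 h and frozen tissue, followed by Rrs1 (0.42 ± 0.19) and Noc4l (0.44 ± 0.25), and for Nob1, with -1.49 ± 0.55 (adjusted p = 0.965, edgeR) between FFPE 3 weeks and frozen and -1.63 ± 0.51 (adjusted p = 0.618, edgeR) between FFPE 3 weeks and FFPE 18 h tissue. Next in the comparisons with FFPE 3 weeks tissue were Ncl (0.36 ± 0.15) and Rrp1b (1.03 ± 0.47) against frozen, and Rrp1b (1.04 ± 0.44) and Heatr1 (-0.42 ± 0.21) against FFPE 18 h tissue.

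Across the 39 members, the difference of the furan effect between FFPE 18 h and frozen tissue followed the GC content of the transcript, with a Pearson r of 0.66 and a Spearman rho of 0.64 across genes, where r was 0.13 and rho 0.22 across 14126 genes. GC-rich members such as Rrs1, Noc4l, Nop2 and Rrp9 lay above 0, and Wdr12, Nop58 and Npm1 below. Other members went against this: GC-poor Ncl (0.29) and Noc3l (0.14) lay above 0, and GC-rich Nhp2 (-0.07) below. Without control animal 3, r was 0.14 and rho -0.03, so the relation rests on that animal. Each library's log2 deviation from the mean of the other control libraries of its preservation was also set against GC content. Across members, r was 0.68 in the frozen library of control animal 3 and -0.02 in its FFPE 18 h library. In the other frozen libraries r ran from -0.66 to 0.02, with control animal 3 among the libraries they were measured against. The points share libraries and base composition, and genes are not independent replicates.

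**Figure D4:**
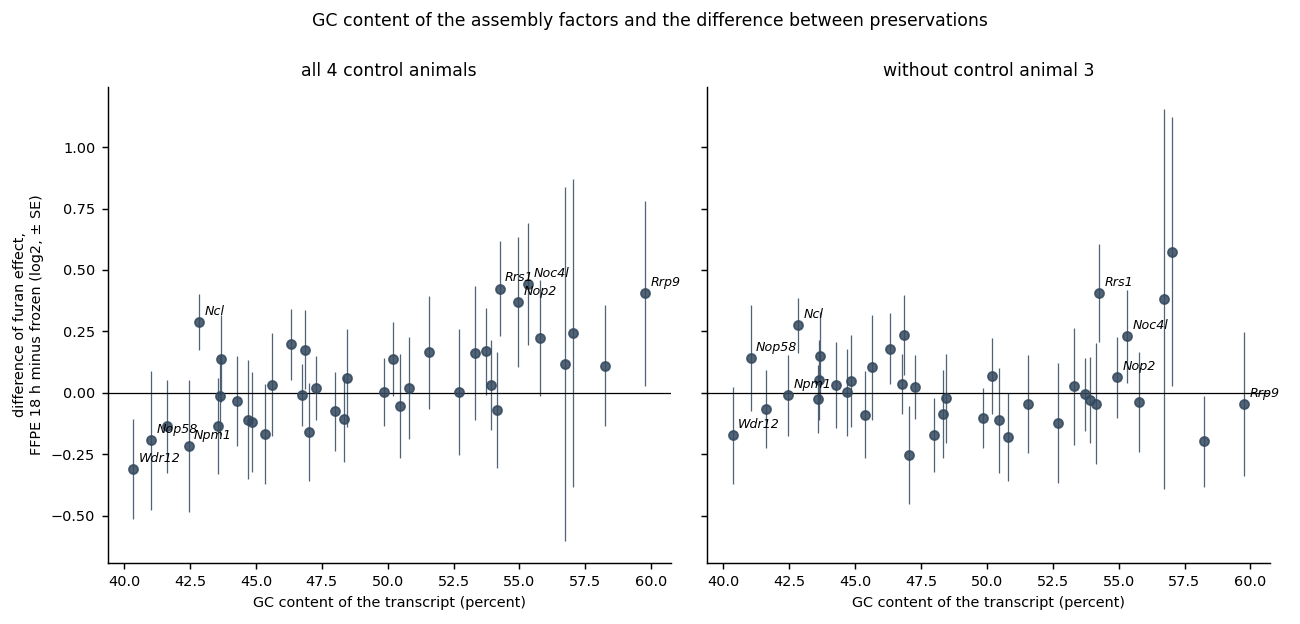
Difference of the furan effect between FFPE 18 h and frozen tissue (log2, ± SE) against the GC content of the transcript for the 39 members, with all control animals (left) and without control animal 3 (right). The rise from left to right in the left panel (r 0.66) is not seen in the right panel (r 0.14).

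Many members differed between the preservations. In FFPE 18 h against frozen tissue, over both treatments, 24 members fell and 1 rose, where 27.3% of genes were called lower and 26.6% higher (edgeR), with a median log2 fold change of -0.44. Against frozen tissue, FFPE 3 weeks tissue had 23 that fell and 1 that rose, where 25.8% were called lower and 23% higher, with a median of -0.65. Between FFPE 3 weeks and FFPE 18 h tissue 11 fell and 3 rose, where 17.5% were called lower and 14.9% higher, with a median of -0.30. Each of the 8 role groups had at least 1 call in each comparison with frozen tissue. Among all genes, 53.9% were called in either direction in FFPE 18 h and 48.8% in FFPE 3 weeks against frozen tissue. The late small-subunit factors had 1 of 5 called in each.

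The largest falls in FFPE 18 h tissue were those of Ltv1, a late small-subunit factor, at -0.85 ± 0.10, Ftsj3 at -0.81 ± 0.07, Npm1 at -0.72 ± 0.14 and the GTPase Gnl2 at -0.70 ± 0.08 (log2 fold change against frozen ± SE). For FFPE 3 weeks tissue they were those of Rrp9 at -1.86 ± 0.33, Nhp2 at -1.66 ± 0.26, Ltv1 at -1.62 ± 0.24 and Ftsj3 at -1.29 ± 0.11. Ftsj3 had 32.1 to 36.1 CPM in furan and 15.7 to 26.9 CPM in control FFPE 3 weeks tissue, against 70.9 to 78.1 CPM in furan and 51.5 to 73.3 CPM in control frozen tissue. The rises were Gar1 in FFPE 18 h (0.76 ± 0.31, adjusted p = 0.048, edgeR) and Rrs1 in FFPE 3 weeks tissue (0.57 ± 0.18, adjusted p = 0.00939, edgeR). Gar1 is a box H/ACA protein read at 0.751 to 2.47 CPM in furan and 0.348 to 2.52 CPM in control frozen tissue, and its call was absent without a filter on low counts.

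Between the fixation times, Rrs1 (0.75 ± 0.16), Npm1 (0.62 ± 0.10) and Dkc1 (0.41 ± 0.15) rose in FFPE 3 weeks over FFPE 18 h tissue, and Rrp9 (-1.25 ± 0.36), Nhp2 (-1.12 ± 0.29), Noc4l (-0.91 ± 0.23) and Mybbp1a (-0.84 ± 0.15) had the largest falls (log2 fold change ± SE). Npm1 had 51.4 to 59.8 CPM in furan and 36.6 to 55.0 CPM in control FFPE 3 weeks tissue, and 28.7 to 40.02 CPM in furan and 31.9 to 37.1 CPM in control FFPE 18 h tissue. Utp20 was at 0.02 ± 0.06 in FFPE 18 h and -0.21 ± 0.11 in FFPE 3 weeks against frozen tissue, and was not called.

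**Figure D5:**
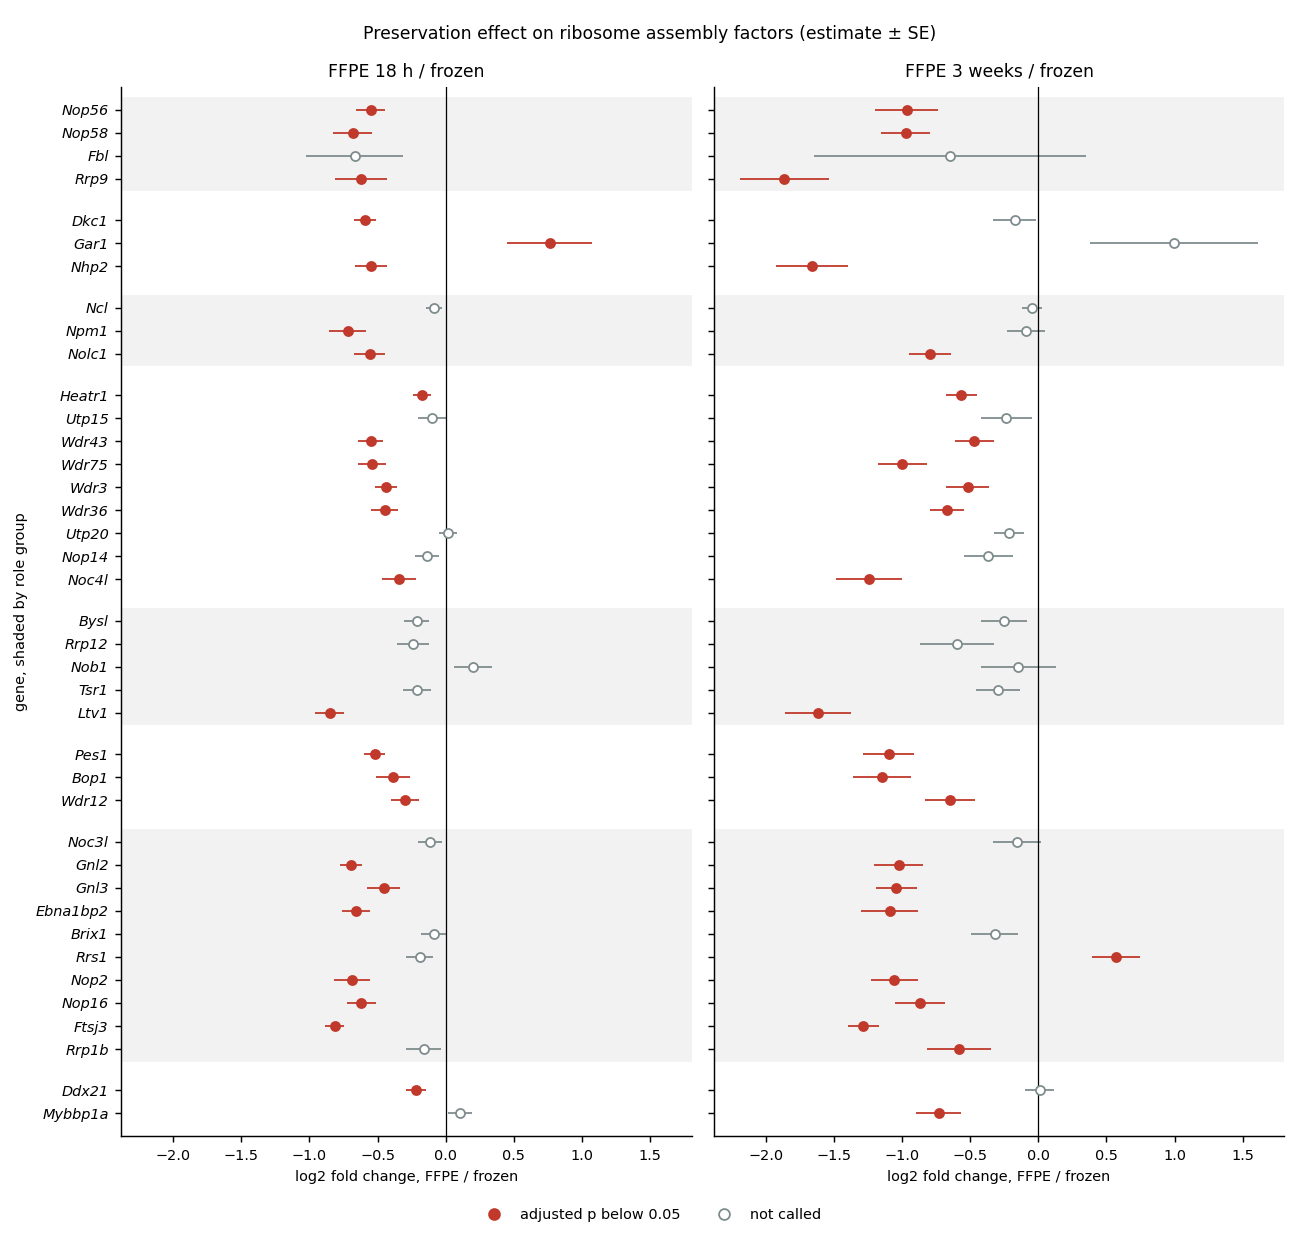
Log2 fold change ± SE of each member in FFPE 18 h over frozen (left) and FFPE 3 weeks over frozen tissue (right), by role down the page, with filled points for adjusted p below 0.05. All but 1 call in each panel lie left of 0, the exceptions being Gar1 on the left and Rrs1 on the right.

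Other genes of the same pathway were taken from lists of their roles, to be read against the 1.57% of all genes called higher in frozen and the 7.82% in FFPE 18 h tissue. Of 45 further large-subunit factors, 3 rose and 0 fell in frozen liver (Mdn1, Gtpbp4 and Nol9), and 13 rose, among them the export adaptor Nmd3 (0.51 ± 0.08), and 1 (Gltscr2, -0.59 ± 0.10) fell in FFPE 18 h tissue. The 3 frozen calls were 11 without control animal 3, 1 without control animal 2 or 6 or furan animal 43 and 0 without control animal 4 or furan animal 41, 42 or 44, and DESeq2 gave 8. The 13 calls in FFPE 18 h tissue were 7 without control animal 3, 6 without control animal 4 and 8 without furan animal 42. Mdn1, the giant ATPase that strips factors from the large subunit, had 83.7 ± 5.76 CPM in furan and 57.4 ± 2.78 CPM in control frozen livers (SD, n = 4 each; log2 fold change 0.55 ± 0.10, adjusted p = 0.0165, edgeR). The median of this list was 0.23 in frozen and 0.21 in FFPE 18 h tissue. Of 39 further small-subunit processome factors, 0 were called in frozen (9 higher and 0 lower at an unadjusted p under 0.05; median 0.02) and 5 rose in FFPE 18 h tissue, among them Mphosph10 (0.56 ± 0.12) and Pno1 (0.42 ± 0.09). Without control animal 3 this list had 3 frozen calls, and without control animal 4 it had 3 in FFPE 18 h tissue.

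For RNA polymerase I machinery, 0 of 19 were called in frozen liver (3 higher and 1 lower at an unadjusted p under 0.05, edgeR) and 2 rose in FFPE 18 h tissue, the large subunit Polr1a (0.44 ± 0.10) and Polr1e (0.69 ± 0.18). Its median was 0.04 in frozen liver, where 2 were called higher and 1 lower without control animal 3. Without furan animal 43, 1 was called higher in FFPE 18 h tissue. Of 16 RNA exosome genes 0 were called in frozen liver (4 higher and 0 lower at an unadjusted p under 0.05) and 1 rose (Dis3, 0.46 ± 0.11) and 1 fell (Zcchc7, -0.31 ± 0.09) in FFPE 18 h tissue. The call of Zcchc7 was lost without control animal 4 or 6 or furan animal 43 or 44, and without furan animal 42 or 44 there were 2 exosome genes called higher. Of 15 kinases and snoRNP assembly factors 0 were called in frozen (1 higher and 0 lower at an unadjusted p under 0.05) or FFPE 18 h tissue (0 and 0). Without control animal 3 the exosome and assembly factor lists still had 0 frozen calls. FFPE 3 weeks tissue had 0 calls in these 5 lists by edgeR (at an unadjusted p under 0.05, 3 large-subunit, 1 small-subunit, 0 polymerase and 4 exosome genes were higher and 1 assembly factor was lower). In the fit over all 24 libraries, the large-subunit, small-subunit, polymerase and exosome lists had 1, 0, 0 and 0 genes called higher in FFPE 18 h and 4, 1, 1 and 4 in FFPE 3 weeks tissue.

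Averaged over the pieces, where 4.62% of all genes were called higher and 4.96% lower, 5 of the 45 further large-subunit factors rose (limma): Gtpbp4 (0.57 ± 0.10), Nol8 (0.69 ± 0.13), Mdn1 (0.40 ± 0.09), Sdad1 (0.42 ± 0.11) and Nmd3 (0.38 ± 0.12), and 1 fell, Gltscr2 (-0.48 ± 0.13; log2 fold change ± SE). Utp18 (0.60 ± 0.16) was the 1 small-subunit factor that rose, and Dis3 (0.67 ± 0.15) and Exosc1 (0.69 ± 0.20) were the 2 exosome genes. Shq1, a box H/ACA assembly factor, fell (-1.15 ± 0.35), a call lost without control animal 3 or 4 or furan animal 42, 43 or 44. The large-subunit count was 3 without control animal 3 or furan animal 41, and the fall of Gltscr2 was lost without control animal 3 or furan animal 43 or 44. The small-subunit count was 3 without control animal 2 and 0 without control animal 4 or furan animal 44. The exosome count was 1 without control animal 3 or furan animal 41, 42 or 43. With the counts of the 3 pieces summed and tested in edgeR, 15 large-subunit, 5 small-subunit and 2 polymerase genes were called higher. The share of all genes called in that fit is not given, and the 4.62% of the limma fit does not apply to it.

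In the MYC network 0 of 12 genes were called in frozen liver (edgeR; 1 higher and 0 lower at an unadjusted p under 0.05), and 1 was called higher without control animal 3. Of the 12, 1 was called higher in FFPE 18 h tissue, Mga (0.19 ± 0.06, log2, adjusted p = 0.034, edgeR), where 7.82% of all genes were. That count was 0 without control animal 3, 4 or 6 or furan animal 42 or 44. Myc itself had 6.01 ± 2.91 CPM in furan and 2.43 ± 0.713 CPM in control frozen livers (SD, n = 4 each) and did not pass (log2 fold change 1.31 ± 0.33, adjusted p = 0.063, edgeR). Myc was tested in FFPE 18 h tissue and was not called there either. In FFPE 3 weeks tissue Myc was at 3.89 ± 1.01 (log2, adjusted p = 0.0559, edgeR) and did not pass. Averaged over the pieces Myc rose (2.40 ± 0.48, adjusted p = 0.00782, limma), with a value that depends on the prior count because control FFPE 3 weeks libraries reached down to 0 CPM. Members with an E-box in the promoter window were 4 of the 17 members with a promoter called higher in FFPE 18 h tissue (23.5%) and 3 of the 15 not called (20%).

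In the p53 surveillance list, Cdkn1a, the cell-cycle inhibitor induced by p53, and Mdm2, the ubiquitin ligase that restrains p53, rose in frozen, FFPE 18 h and FFPE 3 weeks tissue. The list had 2 of 6 genes called higher and 0 lower in frozen liver, with and without control animal 3, where 1.57% of all genes were called higher. Of the 6, 3 rose in FFPE 18 h tissue, Trp53 (0.45 ± 0.13) being the addition, and 1 fell, Mdm4 (-0.31 ± 0.07), a partner of Mdm2 that also restrains p53, where 7.82% of all genes were called higher and 7.72% lower. In FFPE 3 weeks tissue 2 of 4 rose, a count that was 1 without control animal 2 or 6 or any furan animal, where 1.07% of all genes were called higher. In the animal means 2 rose and Mdm4 fell (-0.29 ± 0.08, log2, limma), a call lost without any single animal other than control animal 3. Cdkn1a had 13.9 ± 2.19 CPM in furan and 0.651 ± 0.300 CPM in control frozen livers (SD, n = 4 each; log2 fold change 4.40 ± 0.29, adjusted p = 5.19e-05, edgeR). Mdm2 had 63.5 ± 5.03 CPM in furan and 30.9 ± 2.64 CPM in control frozen livers (SD, n = 4 each; log2 fold change 1.04 ± 0.11, adjusted p = 0.00103, edgeR). The precursor transcript locus Rn45s had 1351 ± 431 CPM in furan and 1637 ± 922 CPM in control frozen livers (SD, n = 4 each) and 34925 ± 9427 CPM in furan and 31729 ± 5063 CPM in control FFPE 3 weeks tissue; the libraries were depleted of ribosomal RNA, so these are the counts left after depletion.

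Among markers of other cells, some of those of proliferating and sinusoidal endothelial cells were called with furan. Of all genes tested, 1.57% were called higher and 1.2% lower in frozen liver, and 7.82% higher and 7.72% lower in FFPE 18 h tissue. These shares were 1.07% and 1.51% in FFPE 3 weeks tissue, and 4.62% and 4.96% in the animal means. Markers of proliferating cells summed to 37.6 to 74.0 CPM in furan and 21.4 to 32.9 CPM in control frozen livers, 33.3 to 67.6 CPM in furan and 21.4 to 35.0 CPM in control FFPE 18 h tissue, and 27.7 to 40.9 CPM in furan and 19.3 to 32.4 CPM in control FFPE 3 weeks tissue. Of these markers 3 of 10 tested were called higher in frozen liver (Mki67, Ccnb2 and Tpx2), and 3 of 9 in FFPE 18 h tissue. At an unadjusted p under 0.05 (edgeR), 8 were higher in frozen and 7 in FFPE 18 h tissue, where 9.06% and 14.5% of all genes were. Of 8 tested in FFPE 3 weeks tissue, 0 were called and 0 reached that unadjusted p. In the animal means 3 of 10 were called higher (limma). Sinusoidal endothelial markers summed to 418 to 446 CPM in furan and 545 to 593 CPM in control frozen livers, with 1 of 6 called lower (Stab2). Their FFPE 18 h sums were 414 to 433 CPM in furan and 510 to 536 CPM in control livers, with 4 of 6 called lower (Stab1, Stab2, Clec4g and Oit3). In FFPE 3 weeks tissue they summed to 357 to 395 CPM in furan and 403 to 491 CPM in control livers, with 0 called (edgeR; 2 lower at an unadjusted p under 0.05), and 3 of 6 were lower in the animal means (limma). Kupffer cell and macrophage markers summed to 359 to 396 CPM in furan and 344 to 726 CPM in control frozen livers, and 0 of 7 were called in any preservation. Lymphocyte markers summed to 2.61 to 4.39 CPM in furan and 3.39 to 4.91 CPM in control frozen livers, and neutrophil markers to 0.954 to 1.397 CPM in furan and 0.619 to 1.48 CPM in control frozen livers. Stellate cell markers summed to 657 to 796 CPM in furan and 682 to 839 CPM in control frozen livers, and bile duct markers to 44.3 to 60.8 CPM in furan and 48.4 to 59.2 CPM in control frozen livers. Of 7 stellate cell markers 1 was called in FFPE 18 h tissue, Col3a1, higher with furan. Of the proliferating, endothelial, Kupffer, stellate and bile duct markers 0 were at 0 in a whole group, while 3 of 5 erythroid markers were at 0 in both frozen groups. Of 6 hepatocyte markers 0 were called in frozen liver (edgeR; 0 higher and 1 lower at an unadjusted p under 0.05) and 2 fell in FFPE 18 h tissue (Fah and Apoa1). The part of these cells in the rise of the assembly factors was not tested.

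Gene neighbours could share reads with members, since the strand setting of the counting is not given in the sources used here. In the GENCODE annotation of GRCm38, 18 of the 39 members had an exon overlap with a gene on the other strand, of which 7 were called higher in FFPE 18 h tissue, and 13 of the 21 without such an overlap were. Lgals8, on the other strand of Heatr1, was at -0.07 in frozen and -0.05 in FFPE 18 h tissue, and Srr, on the other strand of Tsr1, at 0.09 and 0.01 (log2 fold change). Gdap2, on the other strand of Wdr3, rose by 0.68 in frozen and 0.50 in FFPE 18 h tissue (adjusted p = 0.0266 and 0.000796, edgeR). Mpp1, on the other strand of Dkc1, rose by 0.35 in FFPE 18 h tissue (adjusted p = 0.0161, edgeR), where Dkc1 was not called. Whether reads of the shared exon parts were counted for both genes was not tested. Mroh1 at Bop1 (-0.48) and Ccnd3 at Bysl (-0.54) fell in FFPE 18 h tissue. Of 21 snoRNA genes lying inside 7 members, 11 were in the count table.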

How the data were processed

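Raw counts per gene, 1 column per library, were deposited by the authors; the table carried no normalization. Per the submitters' processing notes, CASAVA 1.8.2, STAR 2.3.0, featureCounts 1.4.4 and build mm9 were used; gene models, strand and multi-mapping settings are not given in the sources used here, so genes with near-identical copies (such as Npm1) are uncertain. The members and gene lists were chosen with earlier results of these data known.

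The counts went into edgeR 4.0.16 under R 4.3.3, with TMM, filterByExpr and the two-sided quasi-likelihood test, with Benjamini-Hochberg adjustment over all genes and a threshold of 0.05. Furan was compared with control in each preservation on its 8 libraries, and preservations on 16 libraries with the furan interaction. The animal means of log2 CPM (prior count 2) over 3 pieces were tested in limma 3.58.1. SE is the log2 fold change divided by the root of F. CPM are TMM-normalized over 24 libraries. The steps were checked on simulated data. Each simulated library was drawn on its own, with no animal effect shared by the 3 pieces of a liver, so the handling of pairing was not checked.

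Same-numbered libraries are pieces of the same animal, and correlations of their deviations from group means ran from -0.01 to 0.25; the animal block was an alternative. Other alternatives were DESeq2 1.42.0 (size factors, test), no filter, a fit over all 24 libraries, thinning to 5560002 counts, and each animal left out. Animals are the replicates. Library totals, which set the counting error, were lowest in FFPE 3 weeks tissue.

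Named in full were members called with furan, the 5 smallest p per furan comparison, and the 4 largest called rises and falls per preservation comparison. The 3 smallest p per interaction and the most abundant member per role were also named. From each pathway list only some of the 2 smallest p per furan comparison were named, mostly called genes. Those left out include Polr1d, Utp14a, Mxd1 and Znhit3, with falling estimates, and Ruvbl1, Cirh1a, Exosc9 and Twistnb, with rising ones. None of these was called in the comparison that ranked it. Other genes were named after their values were seen. GC content is that of the longest GENCODE transcript paired with RefSeq (GRCm38). E-boxes were searched in RefSeq promoters (GRCm38.p6).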

Additional observations from a re-analysis of the deposited data

Results flagged for a closer look

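Levels of the members described by the rule for named genes were examined in 66 sets of 4 libraries, together with the median of all members in each group. In 1 set a library lay far from the others for its range: Wdr75, an early small-subunit factor, had 21.6 CPM in the FFPE 18 h library of furan animal 42, against 17.2 to 17.8 CPM in the other FFPE 18 h furan libraries. Chance flags about 1 in 20 groups.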

How the results depend on the processing

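No named member changed direction under any alternative in a comparison where it was called. The members' median kept its sign in each furan and preservation comparison, but not for the difference of the furan effect: between FFPE 18 h and frozen tissue it was 0.02, and just below 0 in the fit over all 24 libraries, without furan animal 41 and without control animal 3 (-0.0063), and between FFPE 3 weeks and frozen tissue it was 0.05, and -0.0031 with the replicate block. The number of members called higher with furan in frozen liver (4) was 10 with the DESeq2 test and 2 after thinning; in FFPE 18 h tissue (20) it was 2 in the fit over all 24 libraries and 11 after thinning; in FFPE 3 weeks tissue (0) it was 1 with the DESeq2 test and 8 in the fit over all 24 libraries. The share of all genes called in these alternative fits is not given here, and a general change in the number of calls was not separated from one of the members. The 1 member called higher in FFPE 18 h over frozen tissue became 0 without a filter and in the fit over all 24 libraries. The members' median for FFPE 3 weeks against frozen tissue was -0.65, and -0.54 after thinning, where fewer counts were left. The other causes were not tested.

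With 1 animal left out, the number of members called higher with furan was 0 to 15 in frozen, 15 to 18 in FFPE 18 h and 0 to 1 in FFPE 3 weeks tissue and 8 to 12 for the animal means, with 0 called lower in each; the medians were 0.23 to 0.35, 0.31 to 0.39, 0.33 to 0.46 and 0.30 to 0.40. Against frozen tissue, 21 to 25 members were lower and 0 to 1 higher in FFPE 18 h (median -0.46 to -0.40) and 22 to 25 lower and 0 to 1 higher in FFPE 3 weeks tissue (-0.67 to -0.58); against FFPE 18 h, 8 to 13 were lower and 2 to 3 higher in FFPE 3 weeks tissue (-0.35 to -0.26). The differences of the furan effect had 0 calls throughout. Over all genes, leaving out 1 animal gave 62 to 633 called higher with furan in frozen and 730 to 963 in FFPE 18 h tissue. In FFPE 3 weeks tissue it gave 98 to 126. With all animals these counts were 222, 1111 and 139.

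With the animal as a replicate block, pairing the pieces of a liver, 26 members were lower and 1 higher in FFPE 18 h and 24 lower and 1 higher in FFPE 3 weeks against frozen tissue (medians -0.43 and -0.66), and 14 lower and 3 higher in FFPE 3 weeks against FFPE 18 h tissue (-0.37); the differences of the furan effect had 0 calls, with medians of 0.01, -0.0031 and 0.09. The block moved no count of calls by over 1.5 times. Library totals were lowest in FFPE 3 weeks tissue (5560002 to 11019297 counts); thinning changed the counts of calls in the other preservations as above, and the part of depth in the 0 calls of FFPE 3 weeks tissue was not tested.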
